A study of Mus musculus with 9 samples.

Results

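Keratins are the intermediate filament proteins of epithelial cells, and 10 of their genes, *Krt7*, *Krt8*, *Krt18*, *Krt19*, *Krt12*, *Krt23*, *Krt5*, *Krt14*, *Krt15* and *Krt17*, were followed here in whole mouse uteri. They were read at all 16 probe sets (groups of short probes that read a transcript) that the platform annotation assigns to only 1 gene, that gene being one of the 10. The whole array held 45037 probe sets for 18193 named genes, among them 61 probe sets for 48 keratin genes. A further probe set named for both *Krt17* and *Krt14* was left out.

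Uteri were taken on gestation day (GD) 3.5, after mating with C57BL/6 males, from 3 groups of mice of mixed strain background, with 3 arrays each. The double mutants, labelled *Mig-6* d/d Erbb2 d/d, carried *Pgr* cre/+ with floxed *Mig-6* and floxed *Erbb2*, and the single mutants, labelled *Mig-6* d/d, carried *Pgr* cre/+ with floxed *Mig-6* (f/f) only. Control mice had floxed *Mig-6*, or floxed *Mig-6* and floxed *Erbb2*, without Cre, and the sources used here do not say which control array came from which genotype. Cre was driven by the *Pgr* locus and so acted only in cells that express, or have expressed, the progesterone receptor, and the controls differed from both other groups in the *Pgr* cre allele as well. Each RNA was a pool of several mice of 1 genotype, and separate pools for the arrays of a group are not stated, so the p-values measure the spread between arrays, which may be technical. The sample labels give an age of 2 weeks, whereas the study's methods describe older mice.

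*Mig-6* (gene symbol *Errfi1*) restrains signalling by receptors of the EGF receptor family, to which ERBB2 belongs. *Errfi1* read 76.0, 29.8 and 40.3 intensity units in double mutant uteri and 15.1, 15.96 and 255 in single mutant uteri, against 454, 564 and 286 in control uteri. The third of the arrays labelled *Mig-6* d/d, called the library labelled single mutant 3 below, therefore lay close to the lowest control array in the gene that its label says was deleted, and the keratin results are given with and without it. *Erbb2* read 18.3, 9.88 and 18.4 in double mutant uteri, 46.5, 39.5 and 44.5 in single mutant uteri and 29.4, 36.7 and 45.7 in control uteri. Whether these probes lie within the deleted parts of the genes was not stated. Array medians lay between 7.87 and 8.24 units.

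Keratin filaments assemble from pairs of a type I and a type II protein, and the pair an epithelial cell makes follows its kind. Simple epithelia, 1 cell layer thick as in the lumen and glands of the uterus, make KRT8 with KRT18, usually together with KRT19 and KRT7. Basal cells of stratified epithelia such as the epidermis make KRT5 with KRT14, often with KRT15, and KRT17 appears in hair follicles and in injured skin. KRT12 is best known from the corneal epithelium. Type I genes other than *Krt18* lie in a cluster on mouse chromosome 11 and type II genes in a cluster on chromosome 15, where *Krt18* is the neighbour of *Krt8*.

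Promoter windows, from 250 bases before to 50 bases after the annotated start, were given in RefSeq for 7 of the 10 genes (assembly GRCm38.p6). The windows of *Krt12*, *Krt7*, *Krt8* and *Krt18* are shown because they allow genes with changes described below to be compared at their starts. *Krt19*, which also changed, had no window and is not part of this comparison. The TATA box (TATAAA), the GC box (GGGCGG) and the CACCC box (CACCC), which is bound by KLF proteins, are in capitals on either strand. *Krt12* lies on the minus strand (chr11:99422210-99422509), *Krt7* on the plus strand (chr15:101412153-101412452), *Krt8* on the minus strand (chr15:102004293-102004592) and *Krt18* on the plus strand (chr15:102027966-102028265).
Krt12: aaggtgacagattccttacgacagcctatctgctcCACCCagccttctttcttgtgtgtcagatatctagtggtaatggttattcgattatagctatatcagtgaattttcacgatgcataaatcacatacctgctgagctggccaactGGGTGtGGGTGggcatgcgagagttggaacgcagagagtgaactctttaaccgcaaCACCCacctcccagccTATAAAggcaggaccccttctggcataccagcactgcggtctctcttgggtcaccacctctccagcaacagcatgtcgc
Krt7: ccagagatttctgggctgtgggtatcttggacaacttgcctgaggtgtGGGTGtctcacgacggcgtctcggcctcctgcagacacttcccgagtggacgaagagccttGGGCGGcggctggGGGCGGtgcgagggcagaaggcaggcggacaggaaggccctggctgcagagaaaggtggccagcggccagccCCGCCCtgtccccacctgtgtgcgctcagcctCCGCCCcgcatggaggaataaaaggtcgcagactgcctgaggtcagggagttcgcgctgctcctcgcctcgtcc
Krt8: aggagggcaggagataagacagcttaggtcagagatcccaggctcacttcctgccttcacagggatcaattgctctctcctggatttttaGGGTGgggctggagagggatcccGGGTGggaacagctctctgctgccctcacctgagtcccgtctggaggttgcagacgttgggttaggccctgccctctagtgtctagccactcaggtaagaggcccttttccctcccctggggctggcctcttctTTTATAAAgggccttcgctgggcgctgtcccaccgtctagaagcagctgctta
Krt18: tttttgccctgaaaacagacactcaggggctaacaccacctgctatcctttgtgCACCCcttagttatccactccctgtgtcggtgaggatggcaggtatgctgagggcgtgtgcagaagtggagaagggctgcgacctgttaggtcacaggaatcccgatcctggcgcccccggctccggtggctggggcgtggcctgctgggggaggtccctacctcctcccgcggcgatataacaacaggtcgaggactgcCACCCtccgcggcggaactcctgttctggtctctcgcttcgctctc

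Searched as exact letters, with variants not counted, the 4 windows did not share 1 motif layout. *Krt12* had a TATA box at bases -29 to -24 from its start, a motif held by 13.6% of the 32851 windows of the same length. CACCC boxes, a motif present in 57.5% of windows, were in all 4 windows. There were 4 in *Krt12*, 2 in *Krt8*, 2 in *Krt18* and 1 in *Krt7*. Of the keratin windows not shown, *Krt5* had 4, *Krt14* 1 and *Krt23* 0. *Krt7* did not hold the letters TATAAA but had 4 GC boxes, a motif of 35.7% of windows. Its GC content was 66.3%, against a median of 52.7% over all windows. The run TTTATAAA in *Krt8*, which holds the TATA letters on both strands, lay across the annotated start (bases -3 to 5). *Krt18* held neither the letters TATAAA nor GGGCGG. At bases 26 to 31 it had the only copy among the 7 keratin windows of TGTTCT, the half-site letters of the progesterone receptor, which 19.0% of windows hold. The letters of a whole estrogen response element (GGTCA and TGACC with 3 bases between them, in 0.07% of windows), of an AP-1 site (TGANTCA, in 7.81%) and of a CCAAT box (in 37.4%) were in none of the 7 keratin windows.

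*Krt12* had the largest fold changes of the 10 keratins, both in single mutant against control uteri and in double mutant against single mutant uteri. Its brighter probe set (1419231_s_at) read 12.2, 13.3 and 18.4 units in double mutant uteri and 126, 188 and 335 in single mutant uteri, against 14.2, 11.8 and 10.3 in control uteri. All 3 single mutant arrays lay far above every other array, and the remaining groups overlapped. The other probe set (1419230_at) read 8.55, 7.60 and 10.8, then 115, 156.5 and 315, and 6.66, 9.03 and 7.89 in the same order of groups. The probe sets therefore gave the same order of groups, and at 1419230_at the control arrays lay near the array medians.

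Among 16 keratin probe sets, 7 increased in single mutant uteri against control uteri and 0 decreased, where an increase means an adjusted p under 0.05 (limma, Benjamini-Hochberg over all probe sets) together with a fold change above 1.5. Of all probe sets 1.71% increased. The 7 belong to 4 of the 10 genes, and of all genes 2.54% increased. The keratins were chosen with earlier results of these data known, so these shares are not a test. *Krt12* was higher in single mutant uteri by 4.06 ± 0.30 (log2 fold change, SE) at 1419231_s_at (adjusted p = 0.00104) and by 4.52 ± 0.31 at 1419230_at (adjusted p = 0.000554). Whether the low control values lie above background is not known, and with an offset of 16 units before log2 the changes were 2.95 and 3.04. In a bulk tissue more cells of a type and more RNA per cell cannot be told apart. Over the 16 probe sets the median log2 fold change was 0.47, against -0.02 over all probe sets. The groups' arrays did not overlap, with single mutant higher, at 7 keratin probe sets, and at 9.45% of all probe sets.

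**Figure D1:**
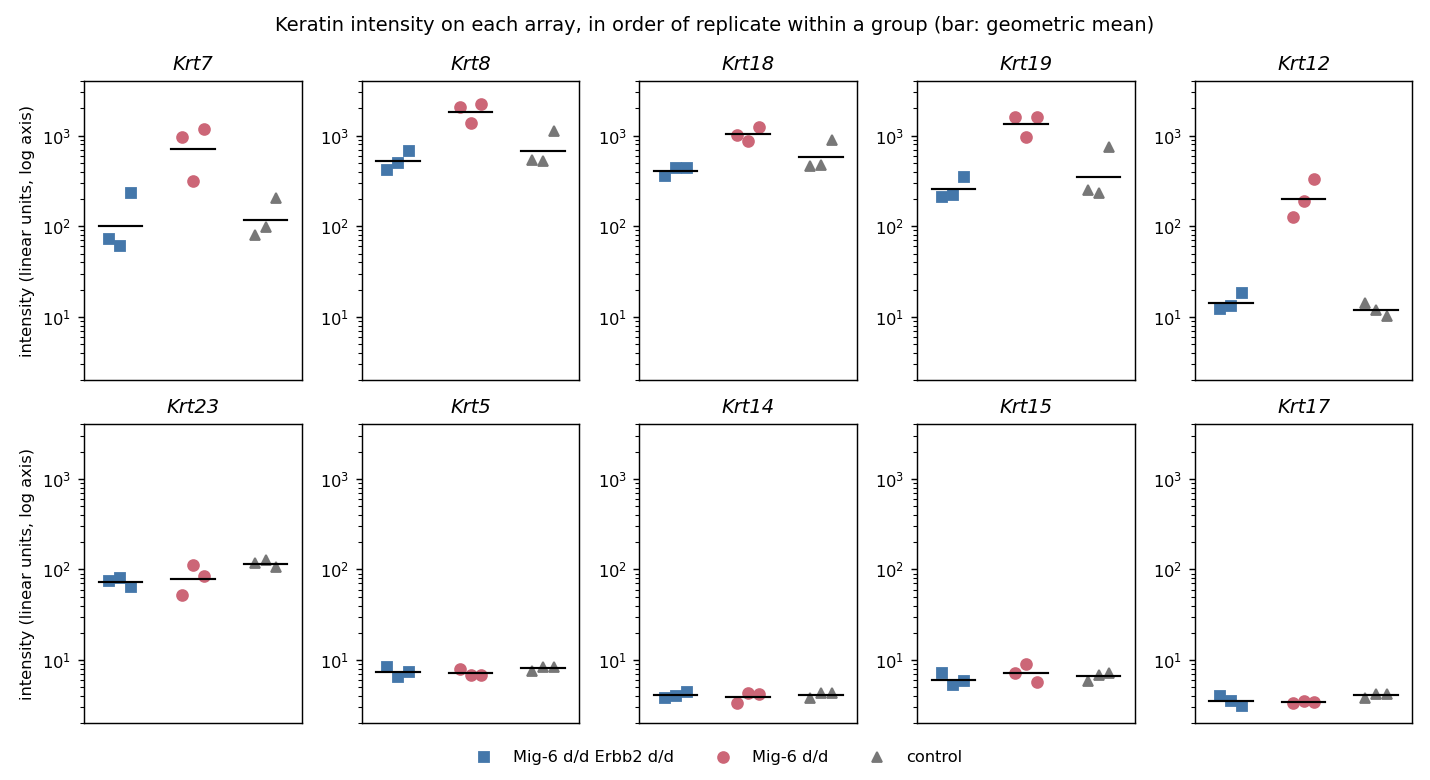
Intensity of each keratin gene at its brightest probe set on the 9 arrays (vertical axis, linear intensity units drawn on a log scale), with double mutants (*Mig-6* d/d Erbb2 d/d) left, single mutants (*Mig-6* d/d) in the middle and controls right in each panel. Points are arrays and bars geometric means. *Krt12* reads 126 to 335 on the single mutant arrays and 10.3 to 18.4 on the other arrays, and *Krt5*, *Krt14*, *Krt15* and *Krt17* stay between 3.08 and 9.01 units on all arrays.

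The type II keratins of simple epithelium increased as well. *Krt8*, the partner of *Krt18*, read 2045, 1367 and 2230 units in single mutant uteri, against 538, 520 and 1124 in control uteri (probe set 1420647_a_at). The lowest single mutant array lay above the highest control array, replicate 3, which stood well above the other control arrays. *Krt8* was 2.71-fold higher (log2 fold change 1.44 ± 0.30 SE, adjusted p = 0.035 in limma), and its other probe sets gave 2.76-fold and 2.42-fold. *Krt7*, a keratin of ducts and glands, read 968, 319 and 1188 in single mutant uteri, against 79.8, 97.5 and 208 in control uteri. It was 6.10-fold higher with the widest error of the 16 probe sets (2.61 ± 0.60 SE, adjusted p = 0.0442), and its 95% interval ran from 1.28 to 3.94 on the log2 scale.

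The type I keratins *Krt19* and *Krt18* were not alike in this comparison. *Krt19*, which lacks the tail domain of other keratins, read 1587, 958 and 1589 units in single mutant uteri, against 252, 234 and 749 in control uteri. No array of one group reached the other, and the gene was 3.79-fold higher (log2 fold change 1.92 ± 0.41 SE, adjusted p = 0.0354 in limma). *Krt18* read 1008, 864 and 1253 in single mutant uteri, against 462, 479 and 903 in control uteri. Control replicate 3 overlapped the single mutant arrays, and the difference of 0.82 ± 0.24 on the log2 scale did not pass (adjusted p = 0.0983). Without control replicate 3 it was 1.13 (adjusted p = 0.0117). Whether the change of *Krt18* differed from that of its partner *Krt8* was not tested.

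The calls of *Krt8*, *Krt7* and *Krt19* in this comparison depended on single arrays, and those of *Krt12* did not. With single mutant replicate 1, the library labelled single mutant 3, control replicate 1 or control replicate 2 left out, only the 2 *Krt12* probe sets increased. Without double mutant replicate 2, which enters through the shared estimate of the spread, 4 did, without its replicate 1, 5 did, and without control replicate 3, 8 did. Leaving out the library labelled single mutant 3 gave log2 fold changes of 1.30 for *Krt8* (adjusted p = 0.113), 2.24 for *Krt7* (0.138), 1.80 for *Krt19* (0.111) and 0.67 for *Krt18* (0.268). *Krt12* kept 3.68 (adjusted p = 0.000716) and 4.11 (adjusted p = 0.000115) at its probe sets. *Krt12*, *Krt7*, *Krt8* and *Krt19* are also among the genes that the study listed from these arrays, so their direction is not independent evidence.

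With *Erbb2* deleted as well, keratin levels were lower than in single mutant uteri. Against single mutant uteri, 8 of the 16 probe sets decreased in double mutant uteri and 0 increased, where 2.75% of all probe sets decreased. They belong to 5 of the 10 genes, *Krt12*, *Krt7*, *Krt8*, *Krt19* and *Krt18*, and of all genes 3.75% decreased. The arrays of the groups did not overlap at any of the 8, with double mutant lower, as at 12.0% of all probe sets. The median log2 fold change over the 16 was -0.79, against 0.02 over all probe sets. This comparison shares the single mutant arrays with the preceding one, and an array of that group that stands high moves both.

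*Krt12* was lower in double mutant than in single mutant uteri, with log2 fold changes of -3.79 ± 0.30 SE at 1419231_s_at (adjusted p = 0.000417 in limma) and -4.33 ± 0.31 at 1419230_at (adjusted p = 0.000168). As against control, the low group may be at background, and with the offset the changes were -2.83 and -2.97. *Krt7* read 72.6, 61.0 and 233 units in double mutant uteri, against the 968, 319 and 1188 of single mutant uteri. Replicate 3 was the highest of its group there, still under the lowest single mutant array, and the gene was 7.08-fold lower (-2.82 ± 0.60, adjusted p = 0.022). *Krt19* read 212, 224 and 351 in double mutant uteri, 5.25-fold below single mutant uteri (-2.39 ± 0.41, adjusted p = 0.00955).

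The partners *Krt8* and *Krt18* both decreased. *Krt8* read 418, 501 and 670 units in double mutant uteri and was 3.54-fold lower than in single mutant uteri (log2 fold change -1.82 ± 0.30 SE, adjusted p = 0.00882 in limma), with 3.51-fold and 3.25-fold at its other probe sets. *Krt18*, which had not passed against control, read 358, 437 and 434 in double mutant uteri and was 2.52-fold lower (-1.34 ± 0.24, adjusted p = 0.0119). With each of the 9 arrays left out in turn, 6 to 8 of the 16 probe sets decreased. Without double mutant replicate 1 *Krt7* and *Krt18* no longer passed, and without double mutant replicate 2 or single mutant replicate 1 *Krt7* did not. Omitting the library labelled single mutant 3 lost the call of *Krt7* (-2.46, adjusted p = 0.0771), while *Krt8* (-1.69, 0.0346), *Krt19* (-2.27, 0.0372), *Krt18* (-1.19, 0.0453) and *Krt12* (-3.42, 0.000396) passed.

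**Figure D2:**
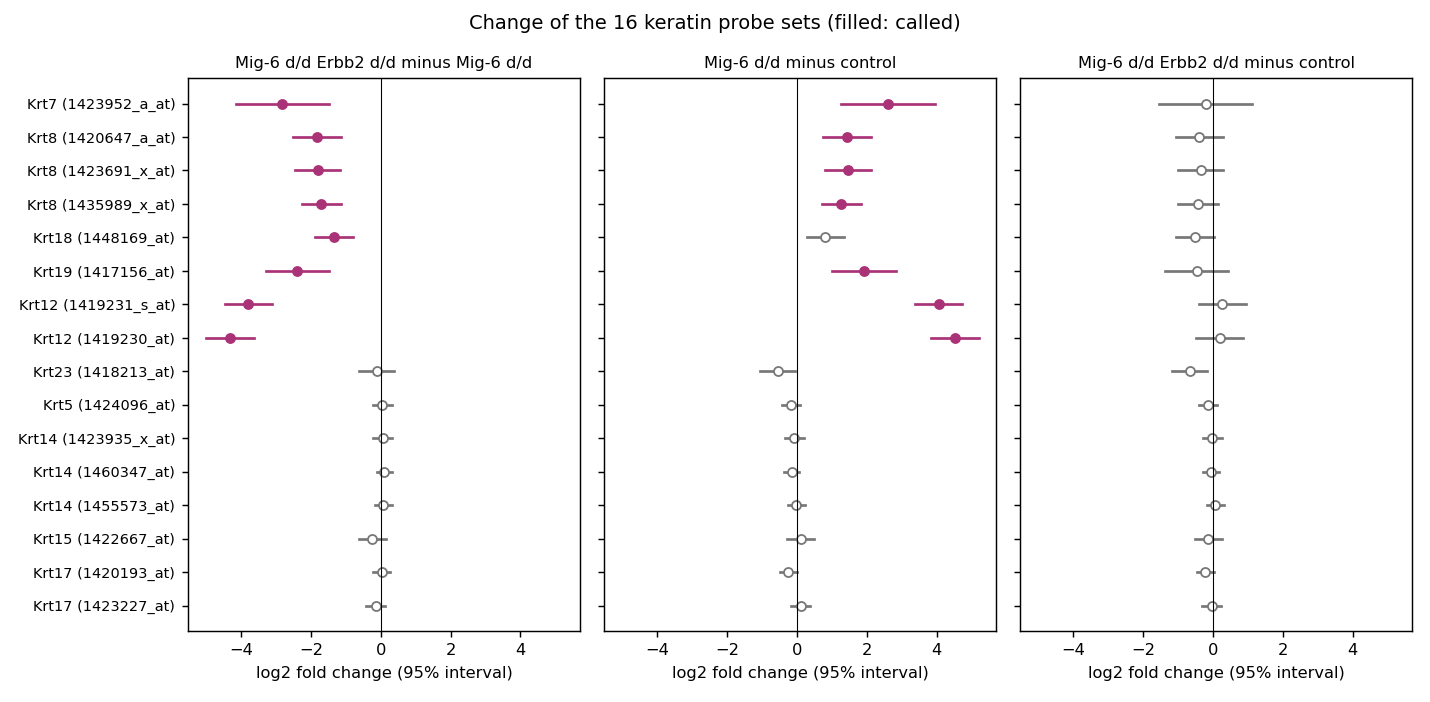
Log2 fold change (horizontal axis) of the 16 keratin probe sets, 1 per line, in 3 comparisons. Points are estimates, lines 95% intervals from limma, and filled points passed the test. In double mutant minus single mutant 8 filled points lie left of 0, in single mutant minus control 7 lie right of it, and in double mutant minus control 0 passed.

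Between double mutant and control uteri, 0 of the 16 keratin probe sets changed by limma (1 had an unadjusted p under 0.05, and the methods' t-test with the fold limit called 1), where 0.357% of all probe sets changed. The log2 difference of *Krt12* was 0.26 (95% interval -0.41 to 0.94) and that of *Krt8* -0.39 (-1.06 to 0.29). For *Krt7* the interval ran from -1.55 to 1.12, which is wider than the 1.5-fold limit on both sides. All 6 probe sets of *Krt7*, *Krt8*, *Krt18* and *Krt19* had estimates below 0, with a median of -0.41. *Krt18* was lower on each of the 3 double mutant arrays than on each control array (-0.52 ± 0.24 SE, adjusted p = 0.674). Without control replicate 3 the sign of *Krt7* (0.20) and *Krt19* (0.07) turned.

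*Krt23*, a type I keratin that lies 2 genes from *Krt12* in the cluster, followed another course. It read 75.2, 81.2 and 64.4 units in double mutant uteri and 52.5, 111 and 85.6 in single mutant uteri, against 118, 126 and 106 in control uteri. The double mutant arrays were all below the control arrays, and the single mutant arrays spread across both. Its log2 differences were -0.67 for double mutant against control (adjusted p = 0.45 in limma), -0.55 for single mutant against control (0.232) and -0.11 for double mutant against single mutant (0.854). *Krt18* and *Krt23* were the 2 keratin probe sets whose double mutant arrays were all below control, as at 5.82% of all probe sets.

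Among keratins of stratified epithelium, *Krt14* and *Krt17* stayed near the low end of the array, while *Krt15* read mostly under the array medians and *Krt5* close to them. The 7 probe sets of these genes read from 3.08 to 9.01 units on the 9 arrays. *Krt14* and *Krt17* were below the array median on all 9 arrays at each of their probe sets, *Krt15* on 8 and *Krt5* on 5. Of these 7 probe sets 0 passed in any of the comparisons by limma. *Krt5* read 8.45, 6.59 and 7.40 in double mutant uteri and 7.94, 6.90 and 6.81 in single mutant uteri, against 7.56, 8.49 and 8.46 in control uteri. *Krt14*, the partner of *Krt5*, read 3.82, 4.03 and 4.41 in double mutant uteri and 3.32, 4.33 and 4.19 in single mutant uteri, against 3.77, 4.30 and 4.36 in control uteri (1423935_x_at). The groups overlapped for both. Over the 3 comparisons the log2 differences of the 7 probe sets lay between -0.25 and 0.11, and their 95% intervals between -0.63 and 0.50. One of the lowest was that of *Krt17* in single mutant against control uteri (1420193_at, -0.25, adjusted p = 0.271), where all single mutant arrays were below the control arrays. That held for 2 keratin probe sets, the other being one of *Krt14* (1460347_at), and for 11.5% of all probe sets. An unadjusted p under 0.05 occurred once over these probe sets, in that comparison. Detection calls were not used here, so whether these probes read a transcript above background is not known.

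*Krt12* was also set against keratins of simple epithelium on the same array, as a description, since it was singled out for its fold changes. The log2 value of *Krt12* less the mean of *Krt8*, *Krt18* and *Krt19* was -4.69, -4.78 and -4.67 on double mutant arrays and -3.56, -2.47 and -2.30 on single mutant arrays, against -4.80, -5.04 and -6.47 on control arrays. Only the change of this quantity between groups is read, since it sets different probes against each other. It was 2.66 higher in single mutant than in control uteri and fell by 1.94 in double mutant against single mutant uteri, and no array of the single mutants overlapped the other groups. An exact two-sided permutation test of 3 against 3 arrays cannot give a p under 0.1, so no test bears on this. With *Krt7* in place of the 3 keratins the differences were 1.45 and -0.97, and the groups overlapped: the values were -2.57, -2.20 and -3.66 on double mutant arrays and -2.94, -0.76 and -1.83 on single mutant arrays, against -2.49, -3.05 and -4.33 on control arrays. Set against 14 epithelial genes that are not keratins, the same differences were 2.68 and -2.38. Low *Krt12* values may lie at background. With an offset of 16 units before log2 the differences against *Krt8*, *Krt18* and *Krt19* were 1.59 and -1.02. Control replicate 3, the highest control array for *Krt7*, *Krt8*, *Krt18* and *Krt19*, was the lowest for *Krt12* at the brighter probe set.

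**Figure D3:**
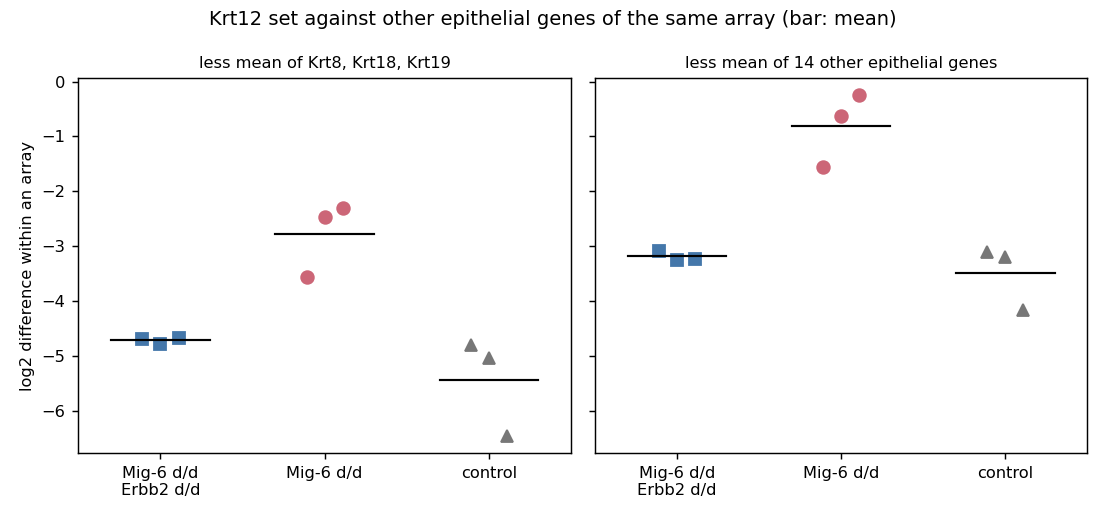
Log2 intensity of *Krt12* less the mean log2 intensity of *Krt8*, *Krt18* and *Krt19* (left) or of 14 other epithelial genes (right) on the same array (vertical axis), for double mutant (*Mig-6* d/d Erbb2 d/d), single mutant (*Mig-6* d/d) and control arrays. Points are arrays and bars means. On the left the single mutant arrays lie between -3.56 and -2.30, above all other arrays.

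Apart from *Krt8* and *Krt18*, which neighbour each other, the measured keratin genes beside the changed keratins did not pass over all arrays. *Krt12* lies between *Krt10*, a keratin of the upper epidermis, and *Krt20*, a keratin of the gut and urothelium. *Krt20* read 4.21, 4.67 and 4.10 units in double mutant uteri and 9.10, 7.60 and 45.5 in single mutant uteri, against 4.50, 4.63 and 4.72 in control uteri. Its single mutant arrays were all higher, most of all the library labelled single mutant 3, and the log2 difference from control of 1.67 had an adjusted p of 0.116 in limma. With that library left out it was 0.85 and passed (adjusted p = 0.0309), and against single mutant uteri *Krt20* was then lower in double mutant uteri (-0.94, adjusted p = 0.00873). *Krt10* read 53.5 to 123 over the 9 arrays (log2 difference 0.29, adjusted p = 0.585). *Krt19* lies next to *Krt15*, which read 7.13, 5.25 and 5.91, then 7.18, 9.01 and 5.72, and 5.89, 6.91 and 7.16 in the order double mutant, single mutant and control. The groups overlapped there. Beside *Krt7* and *Krt8* lie *Krt80*, with a log2 difference of 0.43 between single mutant and control (adjusted p = 0.228), and *Krt78*, with -0.04.

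**Figure D4:**
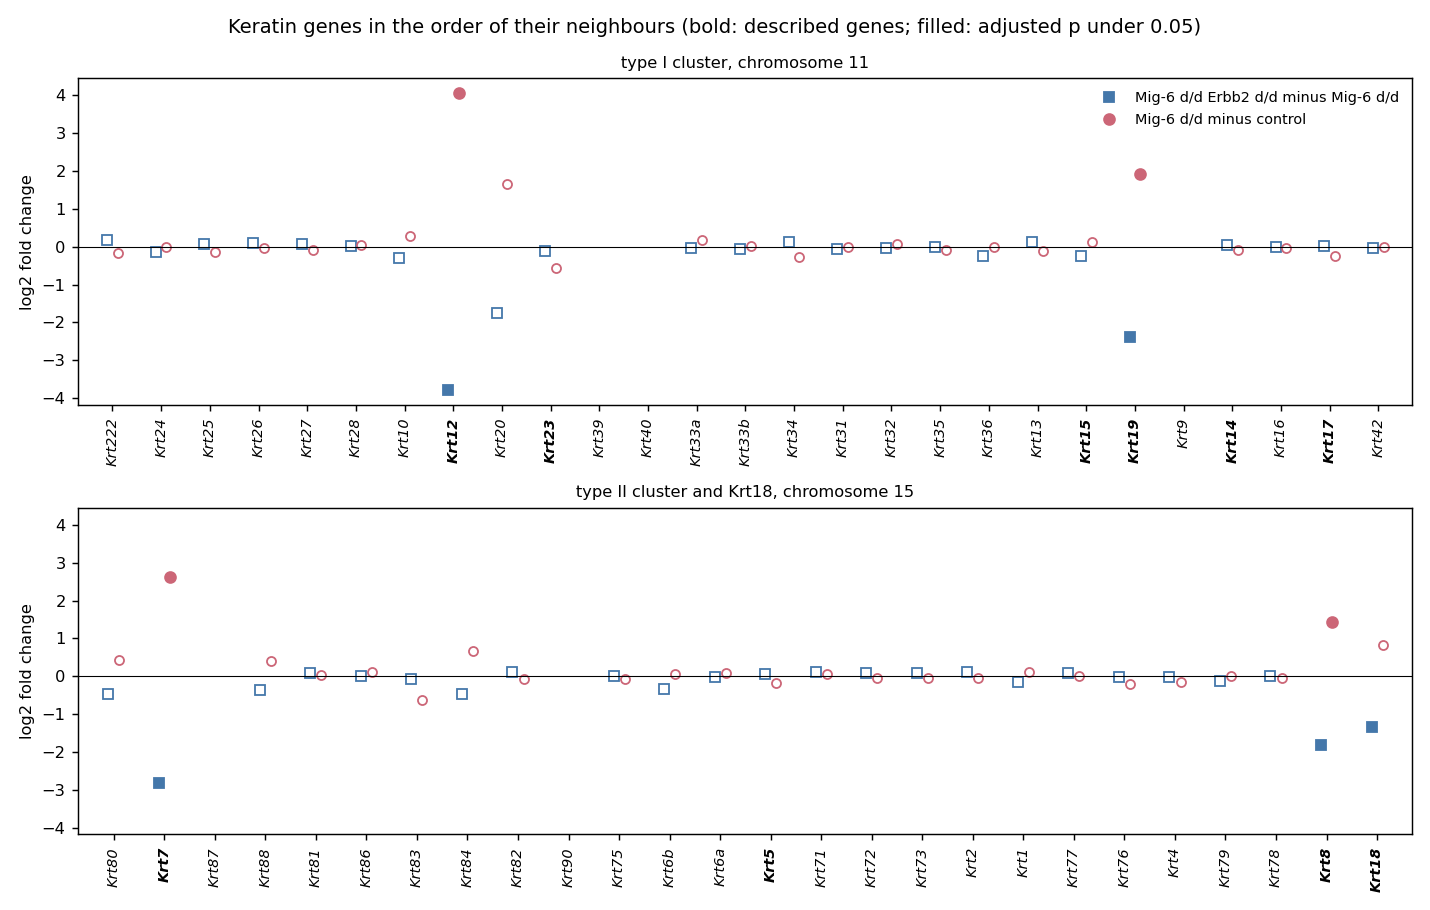
Log2 fold change (vertical axis) of keratin genes at their brightest probe set in the order in which they neighbour each other (horizontal axis, RefSeq, GRCm38.p6), for chromosome 11 above and chromosome 15 below. Squares are double mutant minus single mutant, circles single mutant minus control, and filled symbols have an adjusted p under 0.05. Filled symbols occur only at *Krt12*, *Krt19*, *Krt7*, *Krt8* and *Krt18*, and genes without a symbol were not measured by a probe set of their own.

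Over the 45 probe sets of the 38 other keratin genes, 0 changed in any of the 3 comparisons by limma. An unadjusted p under 0.05 occurred for 5 of them in double mutant against single mutant, 5 in single mutant against control and 2 in double mutant against control, where the methods' t-test with the fold limit called 0, 0 and 1. Of these probe sets 32 were below the median of every array. At the gene level 18 of 21 other type I and 19 of 23 other type II keratins of the lists were measured, with 0 increased and 0 decreased, where 3.73% of all genes increased and 3.75% decreased in double mutant against single mutant, 2.54% increased and 1.8% decreased in single mutant against control, and 0.407% changed in double mutant against control. *Krt83*, a keratin of hair, had the most negative log2 difference among them in single mutant against control uteri, -0.62 (adjusted p = 0.0925).

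Desmosomes are the junctions to which keratin filaments are anchored. Of 17 measured genes of desmosomes and keratin linkers, 4 increased in single mutant against control uteri and 0 decreased, and 6 decreased in double mutant against single mutant uteri and 0 increased. Of all genes 2.54% increased in the first of these comparisons and 3.75% decreased in the second. In single mutant against control uteri 12 of the 17 were higher and 5 lower. *Perp*, a membrane protein of desmosomes, read 25.5, 25.0 and 58.8 units in double mutant uteri and 284, 176 and 299 in single mutant uteri, against 38.5, 22.7 and 70.0 in control uteri. It increased by 2.64 (log2, adjusted p = 0.0141) in single mutant and decreased by 2.88 (adjusted p = 0.0055) with *Erbb2* deleted too. *Dsp*, desmoplakin, which ties keratin to the junction, read 60.6, 105 and 150 in double mutant uteri and 739, 339 and 700 in single mutant uteri, against 167, 75.3 and 359 in control uteri. Its decrease passed (-2.51, adjusted p = 0.022) and its difference between single mutant and control did not (1.76, adjusted p = 0.104). *Dst*, of the same list, lay in the opposite direction and did not pass in limma. It was -0.57 in single mutant against control (adjusted p = 0.0845) and 0.58 in double mutant against single mutant (adjusted p = 0.0607). The list's median log2 fold change was -0.38 in double mutant against single mutant and 0.48 in single mutant against control, against 0.03 and -0.03 over all genes. With the library labelled single mutant 3 left out, 3 of the 6 decreases passed, among them *Perp* (-2.74, adjusted p = 0.0235), and 0 of the 4 increases.

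Of 17 measured intermediate filament genes outside the keratins, 0 increased and 1 decreased in single mutant against control uteri, *Vim*, the vimentin of stromal cells (-0.61, adjusted p = 0.0366). Its call was lost with any of 7 of the 9 arrays left out, the library labelled single mutant 3 among them (adjusted p = 0.0975). In double mutant against single mutant uteri 2 increased, *Des*, the desmin of muscle (1.14, adjusted p = 0.0245), and *Iffo1* (0.62, adjusted p = 0.0187), and 0 decreased. Both passed without that library (adjusted p = 0.0318 and 0.0124), and 4 other arrays for *Des* and 5 for *Iffo1* each ended the call when left out. In double mutant against control uteri 0 genes of this list and 0 of the desmosome list changed, with 1 unadjusted p under 0.05 in each. Of all genes 2.54% increased and 1.8% decreased in single mutant against control uteri. In double mutant against single mutant uteri 3.73% increased and 3.75% decreased, and in double mutant against control uteri 0.407% changed.

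The cornified envelope forms in the outer layer of stratified epithelium. Of 21 measured genes of the envelope and of stratified epithelium, 1 increased in single mutant against control uteri, where 2.54% of all genes did. In double mutant against single mutant uteri 1 decreased, where 3.75% of all genes did. Both calls were of *Sprr2f*, a small proline-rich protein that is also made by the uterine epithelium under estrogen. It read 336, 271 and 1616 units in double mutant uteri and 3475, 2836 and 3801 in single mutant uteri, against 376, 340 and 1011 in control uteri (2.73 against control, adjusted p = 0.041). Sequences of the *Sprr2* genes are near-identical, so these probes may read more than 1 of them. *Sprr1a* did not pass, with 3.99 against control (adjusted p = 0.0751 in limma) and all single mutant arrays higher. It read 262, 15.6 and 325 units there, 5.87, 6.31 and 9.02 in control uteri and 5.94, 5.04 and 38.4 in double mutant uteri. Unadjusted p-values under 0.05 occurred for 6 genes of the list in single mutant against control and 9 in double mutant against single mutant. The list's median log2 fold change was 0.01 in single mutant against control, with 12 genes higher and 9 lower. With the library labelled single mutant 3 left out, 0 genes of the list passed in either comparison.

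Regulators of epithelial keratin genes were read as a list of 17 measured genes. In single mutant against control uteri 2 increased and 0 decreased, with 12 higher and 5 lower. In double mutant against single mutant uteri 5 decreased and 0 increased, with 12 lower and 5 higher. Of all genes 2.54% increased in the first of these comparisons and 3.75% decreased in the second. *Cebpa* lay in the opposite direction and did not pass in limma (-0.61, adjusted p = 0.211, and 0.79, adjusted p = 0.0832). *Klf4*, a factor that binds CACCC letters, read 237, 217 and 433 units in double mutant uteri and 740, 461 and 764 in single mutant uteri, against 352, 191 and 228 in control uteri. Its log2 changes were 1.36 against control (adjusted p = 0.0417) and -1.18 with *Erbb2* deleted too (adjusted p = 0.0475). *Grhl2*, a grainyhead factor of epithelia, read 34.1, 43.8 and 48.9 in double mutant uteri and 126, 117 and 107 in single mutant uteri, against 51.7, 41.0 and 63.7 in control uteri, with changes of 1.18 (adjusted p = 0.0115) and -1.48 (adjusted p = 0.00237). *Trp63*, the factor that defines basal cells and drives *Krt5* and *Krt14*, read 4.13 to 5.94 units over all arrays, under the array medians. With the library labelled single mutant 3 left out, *Grhl2* alone of the list passed, with 1.25 (adjusted p = 0.0394) and -1.54 (adjusted p = 0.00984). Whether any of these factors acted on the keratins was not tested.

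Markers of epithelial cells moved with the changed keratins. All 14 measured epithelial genes outside the keratins were higher in single mutant than in control uteri, and 9 increased, against 2.54% of all genes. All 14 were lower in double mutant than in single mutant uteri, and 10 decreased, against 3.75% of all genes. Their summed intensity ran from 2545 to 3549 units in double mutant uteri and from 6458 to 8592 in single mutant uteri, against 2695 to 4043 in control uteri. *Cdh1*, the E-cadherin of epithelial junctions, changed by 1.15 on the log2 scale in single mutant against control (adjusted p = 0.0152) and by -1.27 in double mutant against single mutant (adjusted p = 0.0055). The list's median log2 fold changes were 1.36 and -1.31, where *Krt8* had 1.44 and -1.82 and *Krt18* 0.82 and -1.34. Those of *Krt19* were 1.92 and -2.39, of *Krt7* 2.61 and -2.82 and of *Krt12* 4.06 and -3.79. Control replicate 3 and double mutant replicate 3, which read highest in their groups for *Krt7*, *Krt8* and *Krt19*, also had the highest mean of these epithelial genes in their groups. Leaving out the library labelled single mutant 3 left 2 increases, *Cldn7* and *Rab25*, and 7 decreases among the 14. The part of a larger epithelial share of the tissue in the keratin changes was not tested.

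Stromal and smooth muscle genes lay in the opposite direction, and the sums of the stromal genes ran from 29993 to 31940 units in double mutant uteri and from 21767 to 26109 in single mutant uteri, against 26238 to 30615 in control uteri. All 12 stromal genes were lower in single mutant than in control uteri (2 decreased, median -0.46), and all 12 were higher in double mutant than in single mutant uteri (3 increased, median 0.54). Smooth muscle genes were lower in single mutant than in control uteri for all 8 (0 decreased by limma, 7 at an unadjusted p under 0.05) and higher for all 8 with *Erbb2* deleted too (4 increased). Of all genes 2.54% increased and 1.8% decreased in single mutant against control uteri. In double mutant against single mutant uteri 3.73% of all genes increased and 3.75% decreased. Without the library labelled single mutant 3, 1 of the stromal decreases, 3 of the stromal increases and 3 of the smooth muscle increases passed. Markers of basal cells summed to 70.3 to 79.8 units in double mutant uteri and 85.5 to 133 in single mutant uteri, against 56.3 to 84.1 in control uteri, and 1 of the 6 measured passed, *Lamb3*, a laminin chain (1.39 in single mutant against control and -1.48 in double mutant against single mutant). Both calls were lost without that library (adjusted p = 0.128 and 0.0751). Mesothelial markers, 0 of 8 of which changed by limma, summed to 258 to 330, 198 to 227 and 273 to 339 units in the order double mutant, single mutant and control. Oviduct markers summed to 85.3 to 97.9 units in double mutant uteri and 56.3 to 126 in single mutant uteri, against 46.6 to 60.5 in control uteri. Of the 5, *Pax8* increased in single mutant against control and decreased in double mutant against single mutant uteri, and the others did not pass. In double mutant against control the log2 differences of the 5 ran from -0.35 to 1.85. Without the library labelled single mutant 3 only the decrease of *Pax8* passed. Trophoblast and embryo markers summed to no more than 49.2 units on any array, and 0 of 8 changed by limma, with 1 unadjusted p under 0.05 in each of the comparisons that involve single mutant.

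**Figure D5:**
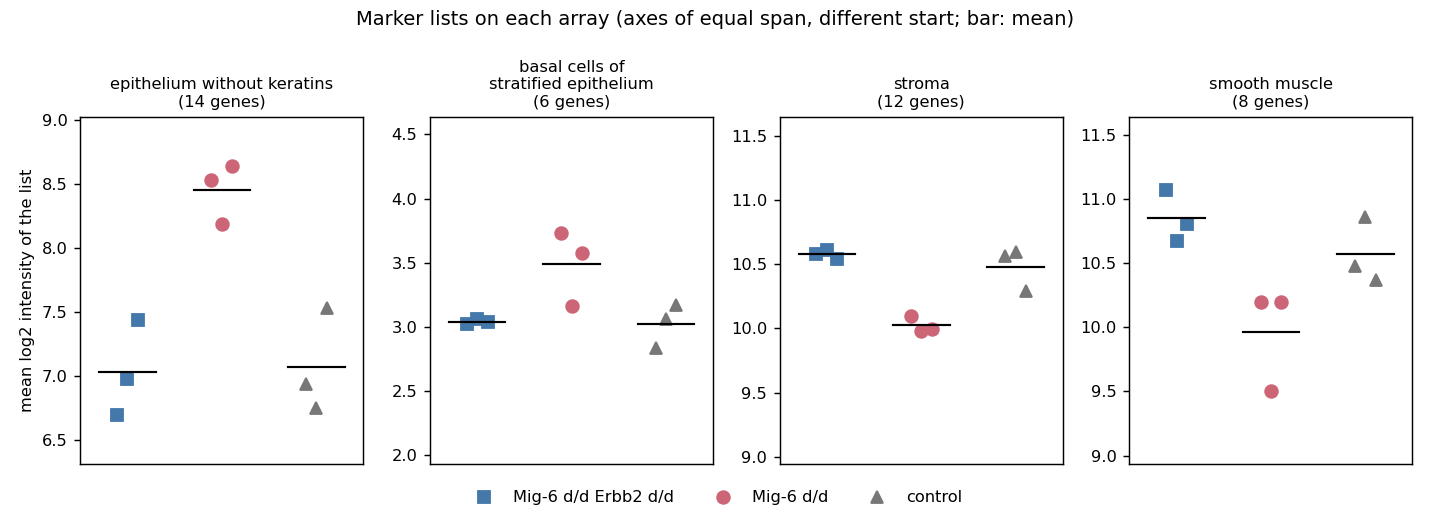
Mean log2 intensity (vertical axis, equal span but different start in each panel) of 4 marker lists on each array, with double mutants (*Mig-6* d/d Erbb2 d/d) left, single mutants (*Mig-6* d/d) in the middle and controls right. Points are arrays and bars means. The 14 epithelial genes are highest on the single mutant arrays, where the 12 stromal and 8 smooth muscle genes are lowest.

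Outside the keratins, the genes with log2 values most like those of each changed keratin were ranked over the 9 arrays, which share 3 groups, as a description. *Krt12* was most like *Ckmt1*, a mitochondrial creatine kinase (Pearson r = 0.990), then *Fam20b* and *Ppp1r14d* (0.985 each). *Krt8* and *Krt19* had the same first gene, *Marveld3*, a tight junction protein (0.997 for both), with *Spint2* (0.991) second for *Krt8* and *Hoxb6* (0.991) second for *Krt19*. *Krt7* was most like *Elf3*, an epithelial transcription factor (0.992), and *Krt18* like *Hoxb5* (0.986). Between keratins, r was 0.996 for *Krt8* with *Krt19*, 0.971 for *Krt8* with its partner *Krt18*, and 0.859 for *Krt8* with *Krt12*.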

How the data were processed

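RNA of whole uteri was hybridised by the authors to Affymetrix Mouse Genome arrays, 3 per group. Per the labels and the study's methods, the authors made the deposited values, intensities on a linear scale (2.11 to 11549 units, median 8.07), by RMA with quantile normalization in Bioconductor, versions not given in the sources used here. Log2 was taken with no offset and no filter. Detection calls were not part of the table, and 3 arrays per group limit the precision. Of 45037 probe sets, 34945 had 1 gene symbol, 932 several and 9160 none in the platform annotation. Symbols were compared by Entrez identifier with RefSeq (GRCm38.p6), which held 34741 and changed 0. For gene counts each gene took the probe set that was brightest on average.

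All 9 arrays entered 1 limma model (lmFit, eBayes; limma 3.58.1, R 4.3.3) with 3 comparisons. Changes passed when the p-value, adjusted by Benjamini-Hochberg across the whole table, was under 0.05 and the fold above 1.5. For the arrays the study's methods give a comparison of pairs of groups by significant change with this fold limit, without naming the statistic, and their two-tailed unpaired test for 2 groups, called the methods' t-test, was an alternative. The fit was tested on simulated data. All keratin members were named. Of each list up to 2 genes per direction that passed, or else the 2 with the smallest p, could be named, and for each keratin that passed the 3 genes most like it. *Krt83*, *Krt10*, *Krt80*, *Krt78*, *Trp63*, *Rab25*, *Cdh1*, *Sprr1a*, *Dst* and *Cebpa* were added as list members or markers after their values were seen. The keratins and the lists were chosen with earlier results of these data known. Promoter windows came from RefSeq, none being used here for *Krt15*, *Krt17* and *Krt19*, and motifs were searched as exact letters on both strands. Alternatives were other normalization, scaling, filters, offset, prior, weights, thresholds and probe set rules, the replicate number as a block and each array left out in turn. Plots were made in matplotlib 3.10.9 (Python 3.11.15).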

Additional observations from a re-analysis of the deposited data

How the results depend on the processing

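The number of keratin probe sets that increased in single mutant against control uteri, 7, was the least stable of the 3 keratin counts. It was 2 with an offset of 16 units before log2, 2 with only the 6 arrays compared, 4 with a trended and robust prior, 4 with shared-sequence probe sets left out, 4 with the mean over the probe sets of a gene (counted in genes, of which 4 had increased at their brightest probe set) and 0 with the methods' t-test after adjustment, and it ran from 2 to 8 with each array left out in turn. In double mutant against single mutant uteri the count of 8 was 5 with shared-sequence probe sets left out, 5 counted in genes (5 at the brightest probe set) and 0 with the adjusted methods' t-test, and 6 to 8 with each array left out. In double mutant against control uteri the count of 0 was 1 with the methods' t-test and its fold limit and 0 in each fit with an array left out. Leaving out shared-sequence probe sets or counting genes leaves fewer features, and for the other settings the cause was not tested. The difference of *Krt12* from *Krt8*, *Krt18* and *Krt19* ran from -2.33 to -1.70 in double mutant against single mutant uteri and from 2.15 to 3.05 in single mutant against control uteri with arrays left out, and was -1.02 and 1.59 with the offset. With comparators added after the data were seen it was -0.97 and 1.45 against *Krt7* and -1.70 and 2.36 against the mean of all 4.

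*Krt12* kept its calls at each probe set tested under all alternatives run but the adjusted methods' t-test (1419231_s_at drops out where shared-sequence probe sets are left out; adjusted p = 0.0904 and 0.0946 in double mutant against single mutant, 0.217 and 0.234 in single mutant against control). Among the named keratins, *Errfi1* and *Erbb2*, signs turned only for differences that had not passed. In double mutant against control, *Krt7* ran from -0.82 to 0.20 with arrays left out (0.03 without double mutant replicate 1, 0.15 without its replicate 2) and *Krt19* from -0.77 to 0.073, both highest without control replicate 3. In double mutant against single mutant, *Krt23* ran from -0.41 to 0.13, and *Errfi1* from -0.50 to 1.54, with -0.19 under array weights and -0.060 with the offset. Replicate numbers did not pair the arrays, as same-numbered arrays correlated between -0.13 and 0.20 after removal of group means. With the replicate number as a block 8 keratin probe sets passed in double mutant against single mutant, 8 in single mutant against control and 0 in double mutant against control, the one gained being that of *Krt18* (adjusted p = 0.0437). Over all probe sets the block gave 2505, 1451 and 134 calls in that order, where 2312, 1265 and 161 were made without it. The 1265 whole-table calls for single mutant against control were 354 with the offset, 612 with only the 6 arrays, 714 counted in genes, 1974 at an adjusted p under 0.1 and 353 to 1762 with arrays left out (419 without the library labelled single mutant 3). The 2312 for double mutant against single mutant were 855 with the offset, 1184 in genes, 35 with the adjusted methods' t-test and 1134 to 2545 with arrays left out. The 161 for double mutant against control were 57 with the offset, 52 in genes, 90 with only the 6 arrays, 529 with the methods' t-test and its fold limit and 86 to 156 with arrays left out. The adjusted methods' t-test made 0 calls in both comparisons with control.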
